A study of Mus musculus with 2 samples.

Results

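The genes described here carry out the making, breakdown, binding and reading of retinoic acid, the active form of vitamin A, in the tissue between the digits of the mouse hind limb. They were taken as every probe set whose platform annotation named exactly 1 gene, that gene being Rdh10, Aldh1a2, Dhrs3, Cyp26b1, Rbp4, Crabp1, Crabp2, Rarb or Rarg. This gave 11 probe sets for 9 genes, out of 45101 probe sets and 18193 named genes on the array. The mutant embryos were homozygous for Hammer toe, a mutation that leaves the digits webbed, and the wild-type embryos were B6. Both were taken at E13.5 after natural mating, and interdigital regions ID2 and ID3 of the hind limb were dissected. There was 1 array per genotype. The design text speaks of 3 sets of 5 littermates and 15 embryos in each genotype, but how these relate to the single array is not stated. The Hammer toe label names no strain, so strain and genotype cannot be told apart. With 1 sample per group there was no test and no error between samples can be given.

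Retinol reaches tissues on the carrier protein Rbp4. Rdh10 oxidises retinol to retinal, Dhrs3 reduces retinal back to retinol, and Aldh1a2 turns retinal irreversibly into retinoic acid, which Cyp26 enzymes hydroxylate for removal. Retinoic acid is held in the cytosol by Crabp1 and Crabp2 and acts through the nuclear receptors Rara, Rarb and Rarg, which bind DNA together with Rxr partners at paired hexamers. In the limb, interdigital mesenchyme makes retinoic acid through Aldh1a2, retinoic acid promotes regression of that tissue, and mice short of Rarb and Rarg or of Rdh10 keep webs between the digits.

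The promoter of Rarb is shown first, because Rarb is both a receptor of the pathway and one of its direct targets. The 250 bases before the RefSeq start of Rarb, at chr14:16575477-16575726 on the minus strand of GRCm38.p6, hold a direct repeat of retinoic acid receptor hexamers. It lies 53 to 37 bases before the start. For comparison, a stretch before the start of Cyp26a1, another target gene of the pathway that encodes a retinoic acid hydroxylase, at chr19:37697736-37697807 on the plus strand, holds the same kind of repeat in the opposite orientation, 32 to 16 bases before the start. Capitals mark the paired hexamers only. A further hexamer of the search, gggtca, stands outside the pair in the Rarb stretch and is left in lower case.
Rarb: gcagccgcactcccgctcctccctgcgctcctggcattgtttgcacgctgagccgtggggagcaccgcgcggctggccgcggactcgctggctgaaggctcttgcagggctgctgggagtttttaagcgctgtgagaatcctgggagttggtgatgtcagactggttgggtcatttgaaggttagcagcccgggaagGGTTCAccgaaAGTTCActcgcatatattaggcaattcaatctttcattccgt
Cyp26a1: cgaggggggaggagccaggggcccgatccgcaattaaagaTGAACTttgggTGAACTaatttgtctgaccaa

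The search took as hexamers the known forms of the receptors' site, AGGTCA, the related GGGTCA, then AGTTCA and also GGTTCA, in pairs on the same strand with 5 bases between them, on both strands, in windows of 300 bases (250 before and 50 after each RefSeq start). Of 32851 such windows, 32 held a pair, or 0.0974%. The sequence table had 11 windows for 7 of the 9 genes. The pair of Rarb is a long-known element whose hexamers are among the forms searched, so its match is given as a description, and the other 10 windows held none. No window of the 7 genes held a pair with a spacer of 1 or 2 bases, which 0.222% and 0.268% of all windows held. At least 1 hexamer stood in 3 of the 11 windows, those of Rarb, 1 of Rbp4 and 1 of Rarg, and in 43.7% of all windows. The windows of Aldh1a2 (chr9:71215539-71215838), Crabp1 (chr9:54764498-54764797), Cyp26b1 (chr6:84593761-84594060) and Dhrs3 held none. These matches are letters in a window and were not tested as binding sites. Rdh10 and Crabp2 are named only.

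The retinol dehydrogenase gene Rdh10 was 1.46-fold higher on the Hammer toe array, the hydroxylase gene Cyp26b1 1.30-fold, the binding protein gene Crabp1 1.29-fold and the carrier gene Rbp4 1.52-fold higher. Aldh1a2 was 1.14-fold lower, inside the 1.24-fold range that held 95% of genes of its brightness, and the 2 probe sets of Rarg had log2 ratios of -0.33 and -0.22. Read from the brightest probe set of each gene, 7 of the 9 genes had a log2 ratio, Hammer toe over wild type, above 0, against 51.7% of the 11621 measured genes (those whose brighter array exceeded an intensity floor of 78.1). The count was 6 after median centring, quantile normalization or lowess correction, because Crabp2 was then at or just below 0. The median log2 ratio of the 9 genes was 0.28, and that of all measured genes was 0.01. Only Rbp4 was at 1.5-fold or more in the higher direction, where 2.17% of all measured genes were, and 0 of the 9 were at 1.5-fold or more in the lower direction, where 1.39% of all measured genes were. At a smaller size, a ratio of 5 to 4 or more, 4 of the 9 were higher and 1 was lower, against 8.47% and 6.33% of all measured genes. At 2-fold there were 0 in either direction, against 0.258% higher and 0.112% lower. Counted over all 11 probe sets, 1 was at 1.5-fold or more in the higher direction, as were 2.15% of measured probe sets, and 0 in the lower direction, as were 1.75%. At 5 to 4 or more, 5 probe sets were higher and 1 lower, against 9.07% and 7.77%, and at 2-fold 0 were, against 0.224% higher and 0.191% lower. In bulk tissue, more cells of a type and more RNA per cell cannot be told apart.

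**Figure D1:**
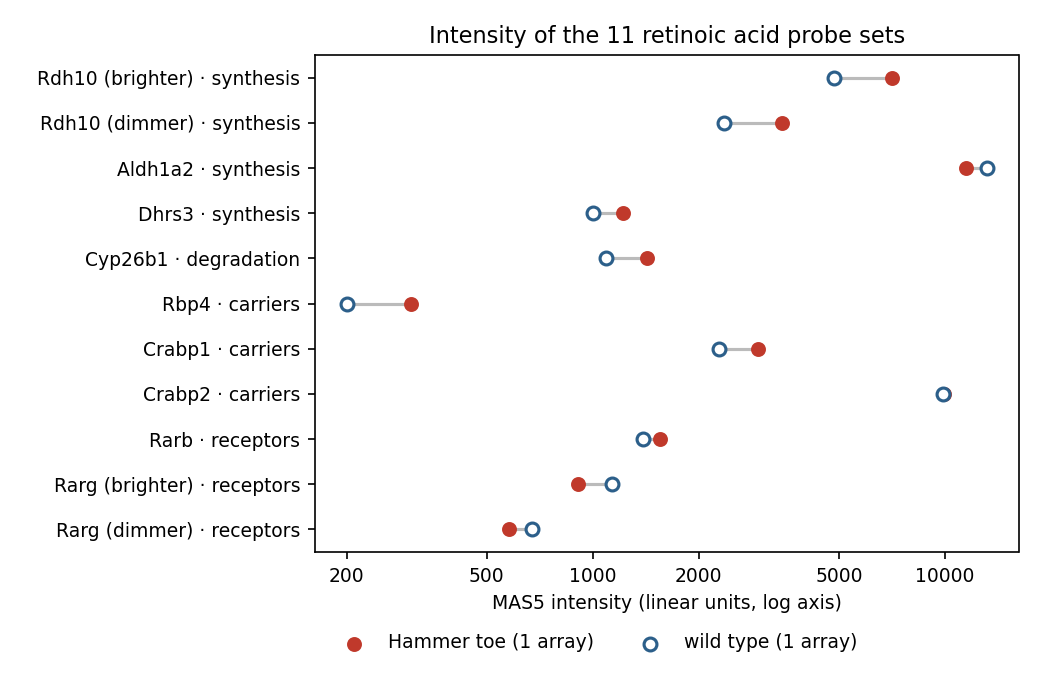
MAS5 intensity (horizontal log axis) of each of the 11 probe sets, with a filled point for the Hammer toe array and an open point for the wild-type array. The filled point lies visibly to the right for 7 probe sets, by most on the ratio scale for Rbp4 and the Rdh10 pair, and to the left for Aldh1a2 and both probe sets of Rarg. The 2 points of Crabp2 coincide.

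The values are MAS5 intensities on a linear scale, a method that joins the short probes of a probe set into 1 value. With 2% of values trimmed at each end, the mean was 500.003 on both arrays, so the arrays are scaled to a common level. A change shared by most transcripts therefore cannot be seen. All 11 probe sets read 200.3 or more on both arrays, well above the floor, so none of their ratios is a bound. Median intensities of the arrays were 78.5 in Hammer toe and 78.1 in wild type. The scatter of ratios depends on brightness. Among 4694 genes whose brighter array read above 1000, 95% lay within 1.24-fold of no difference, and among 4857 genes between 200 and 1000, 95% lay within 1.45-fold. Where a gene had several probe sets, their log2 ratios scattered with an SD of 0.21 (5134 genes), and the 18 spiked hybridisation controls had an SD of 0.06. These measures leave out the spread between embryos and litters, which 1 array per genotype does not give.

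Synthesis was read through 3 enzymes. Rdh10, the retinol dehydrogenase of the first oxidation step, read 7067 in Hammer toe and 4856 in wild type on its brighter probe set. On its dimmer probe set it read 3445 in Hammer toe and 2351 in wild type. The log2 ratios of the pair were 0.54 and 0.55, a gap of 0.01, so the 2 probe sets gave nearly the same difference although their intensities are not comparable with each other. Of the 4694 genes above 1000, 20 were at or beyond the ratio of the brighter Rdh10 probe set in the higher direction, or 0.426%. Both Rdh10 probe sets lay just under the 1.5-fold line, at 1.46-fold and 1.47-fold, which 0.341% of genes above 1000 passed in the higher direction.

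Aldh1a2, the retinal dehydrogenase that completes the synthesis, read 11474 in Hammer toe and 13129 in wild type on its single probe set. Its log2 ratio was -0.19, and 355 of the 4694 genes above 1000, or 7.56%, were at or beyond it in the lower direction. The ratio of Aldh1a2 thus lay within the 1.24-fold range that held 95% of genes of such brightness, and that of Rdh10 lay outside it. The log2 ratio of Rdh10 was 0.74 above that of Aldh1a2, and the ratios of these successive enzymes had opposite signs. Dhrs3, the reductase that runs the first step backwards, read 1214 in Hammer toe and 1003 in wild type, a log2 ratio of 0.28. It was 1.21-fold higher, inside the range of 95% of genes of its brightness, and 173 of the 4694 genes were at or beyond it. Rdh10 and Dhrs3, which act on the same pair of substrates in opposite directions, were therefore both higher in Hammer toe.

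Degradation was read through Cyp26b1, the hydroxylase that clears retinoic acid in limb mesenchyme. It read 1424 in Hammer toe and 1092 in wild type, a log2 ratio of 0.38. Of the 4694 genes above 1000, 66 were at or beyond this ratio in the higher direction, or 1.41%. This places its 1.30-fold difference outside the 1.24-fold range of 95% of genes above 1000. Its wild-type value was near that cut, and 95% of genes between 200 and 1000 lay within 1.45-fold. Of all measured genes, 6.13% were at or beyond its ratio in the higher direction. The log2 ratio of Cyp26b1 was 0.58 above that of Aldh1a2. Cyp26a1, the related hydroxylase whose promoter was shown above, read 289 in Hammer toe and 291 in wild type, a log2 ratio of -0.01.

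Carriers differed among themselves. Rbp4, the retinol carrier, read 305 in Hammer toe and 200.3 in wild type on its single probe set, a log2 ratio of 0.61. Both values lie in an intensity range where ratios scatter more. Of the 4857 genes between 200 and 1000, 105 were at or beyond its ratio in the higher direction, or 2.16%. With a pseudocount of 50 in place of the floor its log2 ratio was 0.50, under the 1.5-fold line. Ttr (transthyretin), which carries Rbp4 in blood, was under the floor on both arrays, at 26.6 in Hammer toe and 35.8 in wild type. Afp, a serum protein of the embryo, was 2.36-fold lower in Hammer toe on its brightest probe set, while 2 other probe sets, under the floor in Hammer toe, gave bounds of -0.88 and -0.04 on the log2 scale and the remaining ones were under the floor on both arrays.

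Crabp1, a cytosolic retinoic acid binding protein, read 2946 in Hammer toe and 2287 in wild type, a log2 ratio of 0.37. Of the 4694 genes above 1000, 76 were at or beyond it in the higher direction, or 1.62%. Crabp2, its relative that hands retinoic acid to the receptors, read 9934 in Hammer toe and 9881 in wild type, a log2 ratio of 0.01 that was -0.01 after median centring. The ratio of Crabp1 thus stood 0.36 above that of Crabp2 on the log2 scale. Crabp2 lay closest to no difference of the 9 genes.

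The receptors had ratios of opposite sign. Rarb read 1548 in Hammer toe and 1389 in wild type, a log2 ratio of 0.16. It was 1.11-fold higher, inside the 1.24-fold range of 95% of genes above 1000. Of those genes, 12.4% were at or beyond that ratio in the higher direction. Rarg, the receptor known from cartilage condensations, read 905 in Hammer toe and 1135 in wild type on its brighter probe set, and 577 in Hammer toe and 671 in wild type on its dimmer one. The log2 ratios of the pair were -0.33 and -0.22. The brighter probe set lay just outside the range of 95% of genes above 1000, of which 1.98% were at or beyond it in the lower direction. Its Hammer toe value was under that cut, and 95% of genes between 200 and 1000 lay within 1.45-fold. Its ratio was reached or passed in the lower direction by 6.20% of all measured genes. The dimmer one lay inside the wider range of 95% of genes between 200 and 1000, of which 14.5% were at or beyond it in the lower direction. The log2 ratio of Rarb was 0.48 above that of Rarg.

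**Figure D2:**
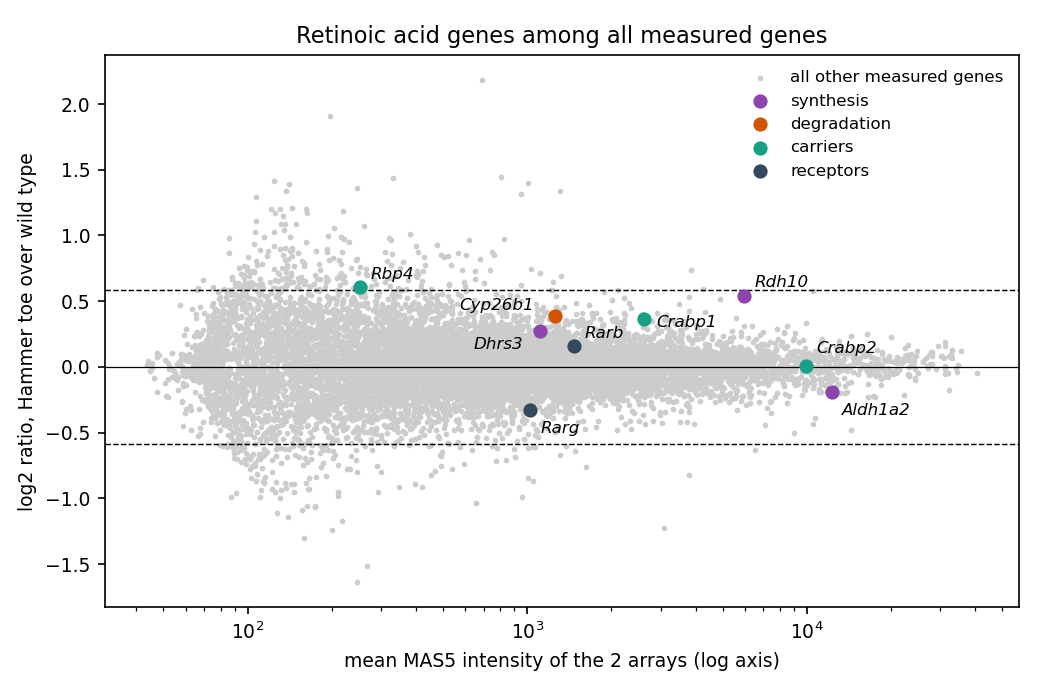
Log2 ratio, Hammer toe over wild type (vertical axis), against the mean MAS5 intensity of the 2 arrays (horizontal log axis) for all 11621 measured genes in grey and the 9 retinoic acid genes in colour by step, each on its brightest probe set. Dashed lines mark 1.5-fold. Rdh10 stands at the upper edge of the grey cloud at its brightness, Rarg towards the lower edge, Crabp2 on the line of no difference, and Rbp4 just above the upper dashed line where the cloud is wider.

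The other genes of retinoid metabolism and transport lay nearer to no difference as a list. Of 37 listed, 34 had a probe set of their own and 16 were measured, with 9 higher, 7 lower and a median log2 ratio of 0.06. None of the 16 was at 1.5-fold or more in either direction, with Adh7, under the floor in Hammer toe, counted at its bound. Of all measured genes 2.17% were higher and 1.39% lower by that size, so 0 of 16 is near the background. Stra6, the cell surface receptor that takes up retinol from Rbp4, read 324 in Hammer toe and 255 in wild type, a log2 ratio of 0.35. Scarb1, a lipoprotein receptor that also takes up carotenoids, was at 0.51 on its brightest probe set, of the _x_at type that can bind related transcripts. Its other probe sets stood at 0.37 and -0.04. Aldh1a7, an aldehyde dehydrogenase close in sequence to Aldh1a1, was at 0.44 with intensities of 177 in Hammer toe and 131 in wild type, and Dhrs7, a short-chain dehydrogenase, at -0.31. The other retinal dehydrogenases known to make retinoic acid, Aldh1a1 and Aldh1a3, were under the floor on both arrays. Aldh1a3 read 37.0 in Hammer toe and 39.4 in wild type, and Aldh1a1 4.17 in Hammer toe and 6.83 in wild type.

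Among 25 listed receptors, partners and coregulators, 21 were measured, with 12 higher, 9 lower and a median log2 ratio of 0.01, which became 9 higher, 12 lower and -0.01 after median centring. None was at 1.5-fold or more on its brightest probe set, against the same shares of 2.17% and 1.39%. The 5 measured receptors and partners lay at or above 0, or 4 of 5 after median centring, with Ppard at 0.36, Rxrb at 0.25, Rara at 0.06 and Rxra at 0.00. Ppard is a fatty acid receptor to which retinoic acid can be delivered by Fabp5, and Rxrb and Rxra are partners of the retinoic acid receptors. Ppard was dim, at 189 in Hammer toe and 147 in wild type. The 8 coactivators ranged between -0.10 and 0.12 and the 8 measured corepressors between -0.20 and 0.12. Tbl1xr1 and Sin3a, members of corepressor complexes, stood at -0.20 and -0.16. Dimmer probe sets spread more widely, between -0.36 and 0.13 for Tbl1xr1, between -0.56 and 0.04 for Lcor and between -0.69 and 0.13 for the coactivator gene Med1.

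Known targets of retinoic acid other than the 9 genes showed no common direction. Of 31 listed, 24 had a probe set of their own and 15 were measured, of which 6 were higher and 9 lower, with a median log2 ratio of -0.01. None was at 1.5-fold or more in either direction, with Tgm2 counted at its bound, which is again near the 2.17% and 1.39% of all measured genes. Another measured probe set of Meis2, a homeobox gene, chosen after its value was seen, stood at 0.59, and the brightest at 0.11. Stra6, which is also a target, had the highest ratio. Nr2f1, an orphan nuclear receptor, had the lowest, at -0.42, reading 349 in Hammer toe and 466 in wild type. Ets1, a transcription factor, was at -0.29 and Dusp6, a phosphatase of the MAP kinase pathway, at -0.14. Mmp11 and Tgm2 are known to depend on retinoic acid in the interdigit. Mmp11 (stromelysin-3) read 1042 in Hammer toe and 952 in wild type, a log2 ratio of 0.13. Tgm2 (tissue transglutaminase) read 59.6 in Hammer toe, under the floor, and 81.6 in wild type on its brightest probe set, a bound of -0.06, and its second probe set stood at 0.19. The lists of other metabolism genes, receptors and targets share the measured genes Cyp26a1, Stra6, Lrat, Rara and Nrip1.

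**Figure D3:**
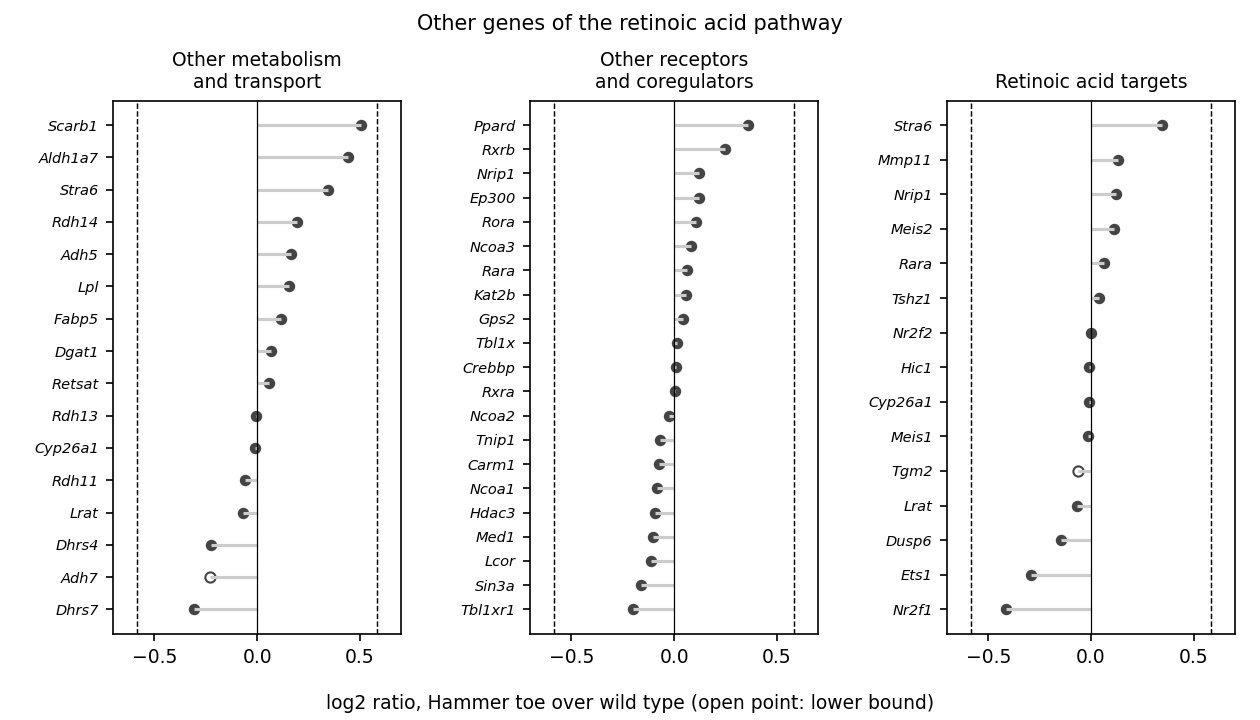
Log2 ratio, Hammer toe over wild type (horizontal axis), of each measured gene of the lists of other metabolism and transport genes, other receptors and coregulators, and retinoic acid targets, with dashed lines at 1.5-fold and open points for lower bounds. All points lie between the dashed lines. Scarb1, Ppard and Stra6 are highest in their lists, and Dhrs7, Tbl1xr1 and Nr2f1 lowest.

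Markers of the tissue and of other cell types were read on the same scale. Pitx1 and Tbx4, the transcription factor genes that mark hind limb, were measured on both arrays, with Pitx1 at 1228 in Hammer toe and 1423 in wild type, while Tbx5 of the fore limb was under the floor on both. The 8 limb mesenchyme markers had ratios between -0.41 (Hoxa13) and 0.05 (Msx2), with Lhx9 at -0.29. The ratios of Aldh1a2, Crabp2 and both Rarg probe sets lay within this range. Of the 10 measured limb and hind limb markers, 9 were lower, as were 48.3% of all measured genes. The median of the 10 was -0.15, with a summed intensity of 65266 in Hammer toe and 72183 in wild type.

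Cartilage markers were lower on the Hammer toe array, as were Rarg and Aldh1a2. Of 15 measured cartilage genes, 14 were lower in Hammer toe, as were 48.3% of all measured genes, and 6 of them by 1.5-fold or more, as were 1.39% of all, with a median log2 ratio of -0.56 and a summed intensity of 11178 in Hammer toe and 17099 in wild type. Col9a3 and Sox5 were lowest, at -0.99 and -0.96. The part of cartilage in the ratios of Rarg and Aldh1a2 was not tested.

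Markers of several other cell types were higher, as were Rdh10, Cyp26b1, Crabp1 and Rbp4. Over all measured genes, 51.7% were higher and 48.3% lower, and the counts that follow stand against these shares. Of 16 surface ectoderm markers, 13 were higher, with a median of 0.29 and a summed intensity of 18530 in Hammer toe and 14659 in wild type. Epcam and Esrp1 led them at 0.57 and 0.55, though the other probe set of Epcam stood at -0.71. Of 15 macrophage markers, 14 were higher, at a median of 0.31 and sums of 6144 in Hammer toe and 4947 in wild type, led by Aif1 at 0.79 and Fcgr3 at 0.63. Of 7 measured muscle markers, 5 were higher, and 2 of the 7 were bounds. Their median was 0.35 with sums of 1571 in Hammer toe and 1021 in wild type, led by Myh3 at 1.09 and Actc1 at 0.97. Of 8 measured Schwann and nerve markers 8 were higher, or 7 after lowess correction. Of the 8, Sox10 was a bound at 0.00, and after median centring or quantile normalization only 7 were measured. The median was 0.19 with sums of 1955 in Hammer toe and 1624 in wild type. Mbp led at 0.67, or 0.22 on its other measured probe set, followed by Erbb3 at 0.30. Of 15 endothelial markers, 8 were higher and 7 lower, or 7 and 8 after median centring. Their median was 0.01, or -0.01 after median centring, with sums of 8566 in Hammer toe and 7816 in wild type. They ranged between -0.28 (Pecam1) and 0.55 (Esam), with Egfl7 at 0.44. Of 9 measured erythroid markers 8 were lower, at a median of -0.36 with sums of 51864 in Hammer toe and 59929 in wild type, and Hbb-bh1 and Slc4a1 stood at -0.82 and -0.54. Of 8 serum protein genes of liver and yolk sac with a probe set, Afp was measured and the other 7 were under the floor. The part of these cell types in the ratios of the retinoic acid genes was not tested.

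**Figure D4:**
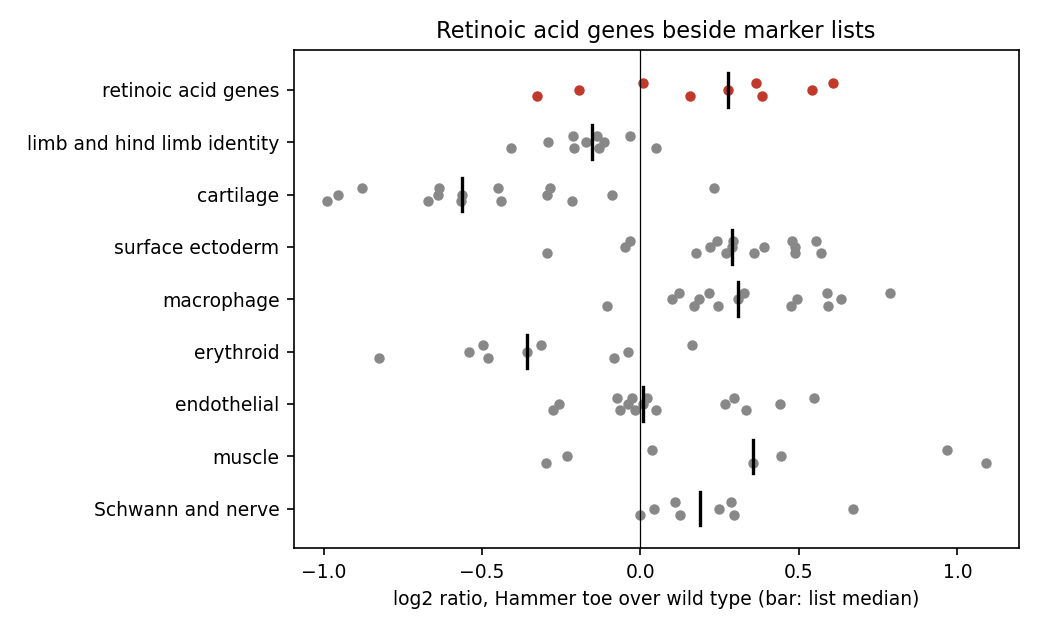
Log2 ratio, Hammer toe over wild type (horizontal axis), with a point for each measured gene and a black bar for the median of each list. The 9 retinoic acid genes in red spread between -0.33 and 0.61 with a median of 0.28. The medians of the marker lists shown lie between -0.56 for cartilage and 0.35 for muscle.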

How the data were processed

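The authors deposited a linear intensity for each probe set on each array. Per the submitters' processing notes, the tools were MAS5 and Affymetrix Expression Console (version not stated). RNA was labelled from 250 ng total RNA, per the labels' protocols. No detection calls were used. Of 45101 probe sets, 64 controls were left out, and 34945 named 1 gene, 932 several and 9160 none. Symbols were updated through the gene ID to the RefSeq table of GRCm38.p6, and 204 of these probe sets without a match kept the annotation's symbol. No probe set with several genes named any of the 9 genes.

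From the deposited intensities, log2 ratios were taken after lifting values under a floor (the median of all non-control values, 78.1) to that floor. A gene was measured when its brighter array exceeded the floor, and its probe set of highest mean stood for it. A ratio with 1 array under the floor is a lower bound. With 1 array per genotype, genes were called by size alone, at 1.5-fold. The calculation was tested on simulated data, by planting differences in genes above the floor on both arrays. Those differences were larger than any of the retinoic acid genes, so smaller sizes were not tested. Python 3.11.15, pandas 2.3.3, numpy 2.4.6 and statsmodels 0.14.6 were used. Promoter sequences are RefSeq's, from GRCm38.p6.

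The 9 genes and the lists were chosen with earlier results of these data known. The rule for naming took all 9 genes, of the other pathway lists every member at 1.5-fold and the 4 largest ratios, and of each marker list the 2 largest. Others were named after their values were seen. The alternatives were 3 normalizations, other floors, a pseudocount, other choices of probe sets and other sizes of change. No gene was named for a similar pattern, since 2 arrays give 1 ratio per gene.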

Additional observations from a re-analysis of the deposited data

How the results depend on the processing

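No paired analysis was possible because each genotype had 1 array, and for the same reason no array could be left out. All alternatives were planned. Apart from Crabp2, which was above 0 in 6 of 9 alternatives, every retinoic acid gene kept the sign of its ratio in each alternative in which it was measured. Rdh10 ranged between 0.53 and 0.55, Cyp26b1 between 0.37 and 0.39, Rbp4 between 0.50 and 0.61, Aldh1a2 between -0.21 and -0.19 and Rarg between -0.34 and -0.27. The median over the genes ranged between 0.22 and 0.28. The call of Rbp4 was lost, leaving 0 genes and 0 probe sets at 1.5-fold or more, with the pseudocount of 50, at 2-fold, and under a 75th percentile floor, where Rbp4 was not measured. At a ratio of 5 to 4 or more, 4 genes and 5 probe sets were higher and 1 gene and 1 probe set lower. The counts of the other lists depended on the floor. Without a floor, 4 other metabolism genes were higher and 7 lower, 1 receptor or coregulator was lower, and 4 targets were higher and 3 lower. Under a 25th percentile floor, these counts were 3 and 4, 1, and 2 and 1. The number of measured genes changed with the floor too, so these counts are to be read beside those of all genes below. At 5 to 4 or more, 3 other metabolism genes, 1 receptor and 1 target were higher, and 1 target was lower. Of all measured genes, 8.47% were higher and 6.33% lower by that size. Over all 11621 measured genes, 252 were higher and 162 lower by 1.5-fold. These became 2342 and 2284 of 18156 genes without a floor, and 1176 and 1084 of 15722 under a 25th percentile floor. Under a 75th percentile floor they were 25 and 21 of 7026. With the main floor and its 11621 genes, they were 984 and 736 at 5 to 4 or more, and 30 and 13 at 2-fold. The cause of these shifts is the construction of the alternatives, which admit or remove dim genes or change the size asked for. Dim probe sets limit what can be read, and Rbp4 is the member nearest to the floor. Apart from brightness, 3 of the 9 genes have no probe set once the types _x_at, _s_at and _a_at are left out. These are Dhrs3, Crabp1 and Rarg, whose probe sets are all of the _a_at type.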

Other observations

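Pairs of the hexamers searched, in any combination and with any spacer letters, also stood in windows of genes other than Rarb. The values of these genes are given here without a comparison of causes. Of 31 genes with a hexamer pair spaced by 5 bases, 8 were measured. Rarb was the only one of the 8 with a log2 ratio above 0, where 51.7% of all measured genes were. The median of the 8 was -0.14, against 0.01 over all measured genes. The lowest were Ppbp, a platelet chemokine, which read 327 in Hammer toe and 580.1 in wild type, 1.77-fold lower, and Tnfsf13b, a cytokine of myeloid cells, at least 1.34-fold lower. Hbb-y, an embryonic globin that is among them, stood at -0.04, and Cyp26a1 at -0.01. Among 22 measured genes with a spacer of 1 base, 11 were higher and 11 lower, with Ak4 1.52-fold lower. Among 7 with a spacer of 2 bases, 3 were higher and 4 lower, or 2 and 5 after median centring. Of these 7, Tinagl1 was 2.30-fold higher, at 182 in Hammer toe and 79.3, close to the floor, in wild type. This list was drawn up after the data were seen and was not tested.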
